A study of Sorghum bicolor with 24 samples.

Results

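ABCG38 (Sobic.003G281500.v3.2) and ABCG41 (Sobic.008G033800.v3.2) are 2 genes of sorghum (Sorghum bicolor) whose names in the deposited tables come from similarity to known transporters. They were chosen by the large difference of their root transcript levels between mock and phosphorus deficiency at day 4 and day 7, so that difference is described here and not tested. They are 2 of the 35907 genes listed in the deposited table of the phosphorus experiment (P table) and of the 35842 listed in that of the strigolactone experiment (GR table). Both genes passed the filter on low counts in the P table, and of the pair only ABCG38 did so in the GR table.

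Proteins of the ABCG group move substrates across membranes with energy from ATP. The full-size members, also called pleiotropic drug resistance proteins, carry 2 nucleotide-binding and 2 transmembrane parts and sit mostly in the plasma membrane. In petunia the full-size transporter PDR1 exports strigolactones, hormones made from carotenoids that roots release into the soil, where they stimulate mycorrhizal fungi and trigger the germination of parasitic Striga. The sources used here do not say what ABCG38 and ABCG41 carry in sorghum.

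All 24 libraries were made from root RNA, in 8 groups of 3. The P table holds roots labelled mock and phosphorus deficiency at day 4 and day 7. The GR table holds roots labelled mock and GR245DS, a synthetic strigolactone analogue, at 3 h and 6 h. The labels do not say the genotype, the age of the plants, the growth medium or its phosphate level, nor whether replicates are separate plants. The p-values therefore cover only the spread among libraries, which may be technical. Libraries of the P table held 32631226 to 45292506 counts in all, and those of the GR table held 31677623 to 38706195. The 4 listed Casparian strip membrane protein genes, which mark the root endodermis, had counts in every group, with 0 genes at 0.

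Most tested genes of families with many members that rise when phosphate is short went against the labels of the P table. Every direction given here for that table goes by the deposited labels. A list of 22 SPX domain proteins and phosphate transporters of the PHT1 family summed to between 5565 and 7596 CPM (counts scaled to a common library size) in the libraries labelled mock. The same sum was between 283 and 429 CPM in the libraries labelled phosphorus deficiency, and between 333 and 517 CPM over the 12 libraries of the GR table. Of its 19 tested members, 16 were lower and 2 higher in the libraries labelled phosphorus deficiency at each day (edgeR, adjusted p under 0.05). Among all tested genes 18.4% were lower and 20.3% higher at day 4, and 18.2% and 17.4% at day 7. In the authors' deposited table the columns named for phosphorus deficiency against mock give ABCG38 a log2 fold change of 4.87 at day 4 and 4.55 at day 7. The authors' deposited table gives ABCG41 5.29 and 5.81. These values have nearly the size of those computed from the labelled counts for phosphorus deficiency against mock, and the opposite sign. The headers do not say which group is the reference. The columns named for mock against GR245DS give ABCG38 -0.081 at 3 h and -0.076 at 6 h. That is the sign computed here for GR245DS against mock. If the first name is the reference in every header, the authors' signs for the P table match the labelled counts. Which labels describe the plants was not tested.

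ABCG38 was abundant in the libraries labelled mock and scarce in those labelled phosphorus deficiency. At day 4 its 3 mock libraries held 217, 166 and 227 CPM, and its 3 phosphorus deficiency libraries 6.98, 6.66 and 7.50 CPM. At day 7 the mock libraries held 189, 131 and 202 CPM, and the phosphorus deficiency libraries 7.58, 7.52 and 7.09 CPM. The lowest mock library was far above the highest phosphorus deficiency library at either day, so the groups did not overlap. Replicate 2 was the lowest mock library at both days.

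As means, ABCG38 stood at 203 ± 32.5 CPM (SD, n = 3) in mock and 7.05 ± 0.425 CPM in phosphorus deficiency at day 4, a ratio of 28.9. Across the pairings of single libraries this ratio ran from 22.2 to 34.0. At day 7 the means were 174 ± 37.9 and 7.39 ± 0.269 CPM, a ratio of 23.5 with a range from 17.3 to 28.5. On the log2 scale of the fit, the difference of phosphorus deficiency from mock was -4.85 ± 0.19 (SE) at day 4 and -4.56 ± 0.18 at day 7. These values describe the contrast on which the gene was picked.

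ABCG41 was likewise abundant in the libraries labelled mock and scarce in those labelled phosphorus deficiency. Its mock libraries held 158, 93.0 and 136 CPM at day 4, against 3.10, 4.34 and 2.55 CPM in phosphorus deficiency. At day 7 the mock libraries held 81.4, 83.4 and 155 CPM, against 1.97, 1.66 and 2.05 CPM. The groups did not overlap at either day, and the mock libraries spread widely. Replicate 3 of mock at day 7 was the highest of its group by a wide margin.

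The means of ABCG41 were 129 ± 33.0 and 3.33 ± 0.918 CPM (SD, n = 3) at day 4, a ratio of 38.7 with a range over library pairings from 21.4 to 61.8. At day 7 they were 107 ± 42.1 and 1.90 ± 0.208 CPM, a ratio of 56.3 with a range from 39.6 to 93.5. The log2 differences were -5.27 ± 0.32 (SE) and -5.81 ± 0.33. Of the 25137 genes tested in the P table, 0.704% had a lower log2 value than ABCG41 at day 4 and 0.664% at day 7. For ABCG38 the shares were 0.839% and 1.11%. As background, 18.4% of all tested genes were lower in phosphorus deficiency at day 4 and 18.2% at day 7 (edgeR, adjusted p under 0.05). Nothing is read from that share for the pair, since the same contrast picked them.

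**Figure D1:**
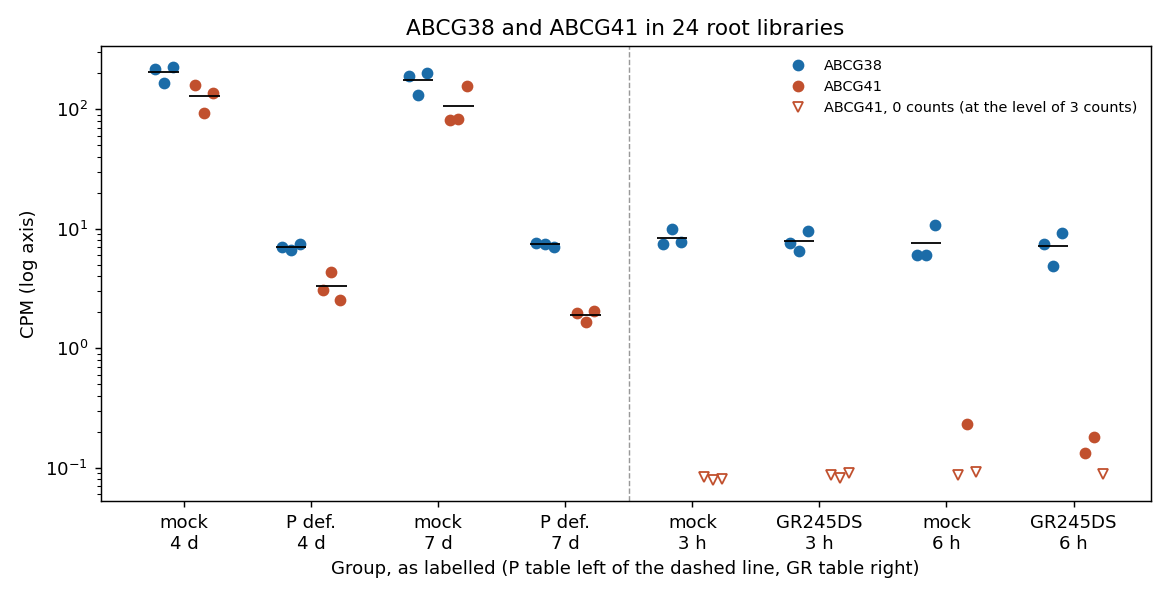
CPM (log axis) of ABCG38 (blue) and ABCG41 (orange) in each of the 24 libraries, by labelled group; bars are means of 3 libraries where every library had counts, and open triangles are libraries with 0 counts, drawn at the level of 3 counts. ABCG38 sits between 131 and 227 CPM in the 6 libraries labelled mock of the P table and between 4.90 and 10.8 CPM in all others, while ABCG41 is near or at 0 in the GR table.

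In the GR table ABCG38 lay at the level of the libraries labelled phosphorus deficiency, although both its mock groups are labelled mock. The mock libraries held 7.50, 9.95 and 7.73 CPM at 3 h, and 6.05, 6.02 and 10.8 CPM at 6 h. The libraries treated with GR245DS held 7.55, 6.54 and 9.49 CPM at 3 h, and 7.40, 4.90 and 9.19 CPM at 6 h. All 4 groups overlapped. The 2 tables were normalized separately, so the levels are set side by side without a test.

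ABCG41 was almost absent from the GR table. It had 0 counts in 9 of the 12 libraries, among them all 6 at 3 h. Taking a count of 0 to allow up to 3 counts, the floor was at most 0.0916 CPM in those 9 libraries. At 6 h it had 8 counts in mock replicate 2, with an exact Poisson interval from 3.45 to 15.8, and 4 and 6 counts in GR245DS replicates 1 and 2. Intervals and floors cover counting error only. In the P table the lowest count of any library was 61.

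Ordered by mean, ABCG38 ran from mock at day 4 and mock at day 7 to a set of 6 groups between 7.05 and 8.39 CPM. Neighbours within the 2 mock groups of the P table overlapped, as did neighbouring groups among the low 6. ABCG41 ran from mock at day 4 and day 7, which overlapped, to phosphorus deficiency at day 4 and then at day 7, which did not. Its 4 GR groups came last.

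GR245DS brought no detectable change in ABCG38. At 3 h the log2 fold change against mock was -0.10 ± 0.30 (SE; adjusted p = 0.980, edgeR), and the 95% confidence interval of the fold ran from 0.592 to 1.48. At 6 h it was -0.09 ± 0.30 (adjusted p = 1.00, edgeR), with an interval of the fold from 0.593 to 1.49. Of all 24814 tested genes, 1.01% passed the threshold of adjusted p 0.05 at 3 h and 0.484% at 6 h. Same-numbered libraries of the GR table deviated together, so their numbers were taken to pair them, which the labels do not state. The tests above do not use this pairing. With the number as a block, the log2 fold changes of ABCG38 were -0.14 and -0.08 (adjusted p = 0.822 and 0.941, edgeR). Without the third replicates of all GR groups, known from earlier results of these data to stand apart, they were -0.31 and 0.02 (adjusted p = 0.683 and 0.989, edgeR). The counts of ABCG41 were too low for a test in this table.

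Time within the GR experiment did not separate ABCG38 either. Mock at 6 h against mock at 3 h gave -0.14 ± 0.30 (adjusted p = 1, edgeR, where 0% of genes passed, 344 had an unadjusted p under 0.05 and DESeq2 called 5). The difference between the GR245DS responses at 6 h and 3 h was 0.00 ± 0.43 (adjusted p = 1.00, edgeR, where 0% of genes passed, 289 had an unadjusted p under 0.05 and DESeq2 called 0).

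Between day 4 and day 7 of the P table, contrasts that played no part in picking the genes, neither gene passed the threshold. In mock, ABCG38 differed by -0.23 ± 0.16 on the log2 scale (SE; adjusted p = 0.678, edgeR) and ABCG41 by -0.27 ± 0.26 (adjusted p = 0.796, edgeR), where 1.34% of all tested genes passed. The 95% intervals of these folds ran from 0.676 to 1.08 for ABCG38 and from 0.562 to 1.216 for ABCG41. In phosphorus deficiency, ABCG38 differed by 0.07 ± 0.17 (adjusted p = 0.901, edgeR), where 4.39% of genes passed.

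ABCG41 in phosphorus deficiency was the nearest to the threshold. All 3 libraries at day 7 were below all 3 at day 4, and the log2 difference was -0.82 ± 0.31 (unadjusted p = 0.0212, adjusted p = 0.2004, edgeR). The 95% interval of the fold ran from 0.355 to 0.905. Over the alternatives tried the adjusted p stayed between 0.0965 and 0.589 (edgeR and DESeq2). The counts behind it were 113, 191 and 100 at day 4 and 64, 61 and 69 at day 7.

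**Figure D2:**
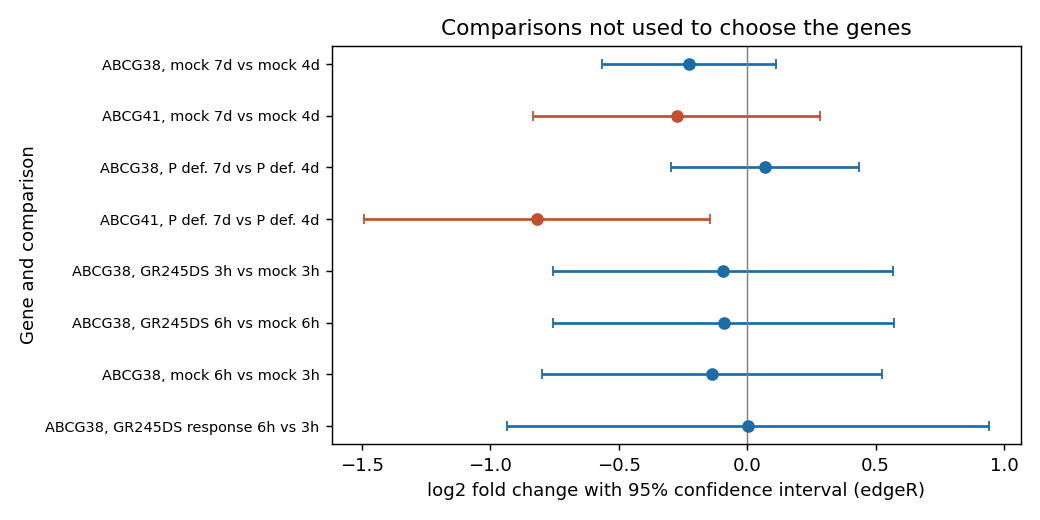
Log2 fold changes (edgeR) of ABCG38 (blue) and ABCG41 (orange) in the comparisons that did not enter the choice of the genes; whiskers are 95% confidence intervals, from 3 libraries per group. The interval of ABCG41 between day 7 and day 4 of phosphorus deficiency, from -1.49 to -0.14, leaves out 0 before adjustment, and the other 7 intervals include it.

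Levels of the 2 genes were compared per length with the authors' FPKM (fragments per kilobase of transcript, scaled to the library's depth). In mock at day 4, ABCG38 stood at 39.8 ± 6.24 FPKM and ABCG41 at 21.9 ± 5.15 FPKM (SD, n = 3). ABCG41 was 63.0%, 48.6% and 52.2% of ABCG38 in those 3 libraries. In mock at day 7 it was 37.3%, 55.3% and 66.8%. The mock groups of both days overlapped, and ABCG41 was the lower gene in every library.

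In phosphorus deficiency the FPKM of ABCG41 was 38.5%, 56.6% and 29.5% of that of ABCG38 at day 4, and 22.6%, 18.9% and 25.1% at day 7. The day 7 libraries were below all 9 others of the P table. The means were 41.5% ± 13.8 and 22.2% ± 3.11 (SD, n = 3). In the GR table the share was at most 3.03%. No test was made on these shares, whose mock and phosphorus deficiency levels chose the genes.

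**Figure D3:**
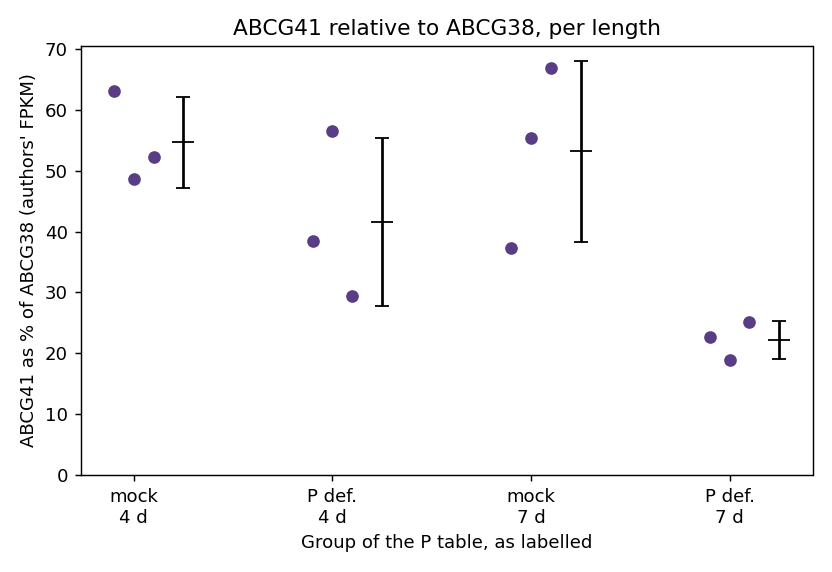
ABCG41 as a percentage of ABCG38 in each library of the P table, from the authors' FPKM; points are libraries and whiskers show mean ± SD of 3 libraries. The 3 libraries of phosphorus deficiency at day 7 lie between 18.9% and 25.1%, below the 9 others.

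Among the 63 genes described as ABCG transporters, ABCG38 was the second by mean FPKM in mock at day 4 and the fourth in mock at day 7, and ABCG41 the seventh at both days. The first place in mock at day 4 went to ABCG42 (Sobic.010G165500), with 41.7 FPKM. In phosphorus deficiency ABCG38 took rank 28 at day 4 and 29 at day 7, and ABCG41 rank 33 at both. In the GR table ABCG38 held ranks 25 to 28. There the first gene in the mock groups was ABCG11 (Sobic.002G234400); ABCG11 of Arabidopsis exports lipids for the cuticle.

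The other ABCG genes moved less and in both directions. Of the 61 others, 40 could be tested in the P table. At day 4, 16 were lower and 6 higher in phosphorus deficiency (edgeR, adjusted p under 0.05), against a background of 18.4% lower and 20.3% higher. Their median log2 fold change was -0.29, that of all tested genes 0.02. At day 7, 9 were lower and 5 higher, against 18.2% and 17.4% of all genes, and the median was -0.13 beside -0.02. Leaving out any of 4 single libraries took the higher genes of day 4 to 2 or 3 (mock replicates 2 and 3, phosphorus deficiency replicates 1 and 2). At day 7 leaving out mock replicate 2, mock replicate 3 or phosphorus deficiency replicate 2 took them to 3.

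No other tested ABCG gene reached the fold of the pair, a direction that the choice of the pair favours. The lowest, chosen after their values were seen, were at day 4 an ABCG45 gene (Sobic.002G168200, -2.77; adjusted p = 0.0171, edgeR) and at day 7 an ABCG36 gene (Sobic.002G203800, -4.19; adjusted p = 8.08e-07, edgeR). The ABCG36 gene had a low level, unlike the pair, at 3.90 CPM in mock and 0.703 CPM in phosphorus deficiency at day 4. For the ABCG45 gene only a level from the GR table is given, 0.650 CPM in mock at 3 h. ABCG36 of Arabidopsis, PEN3, takes part in defence at the cell surface. The ABCG39 gene Sobic.004G087700 moved the other way, by 2.14 at day 4 and 1.83 at day 7 (adjusted p = 3.45e-05 and 0.000119, edgeR). ABCG42 was lower by labels, at 208 and 101 CPM in mock and phosphorus deficiency at day 4. ABCG11 (Sobic.002G234400) was higher at day 4, at 79.5 and 135 CPM.

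With GR245DS the family had 42 tested members besides ABCG38. Among all 24814 tested genes, 1.01% passed at 3 h and 0.484% at 6 h. At 3 h 1 was higher and 0 lower, the ABCG53 gene Sobic.002G174000, which stood at 52.1 CPM in mock and 124 CPM with GR245DS (log2 1.25; adjusted p = 0.0491, edgeR). That call was lost without any single one of the 3 mock libraries, or without GR245DS replicate 1 or 2. Without GR245DS replicate 3 the count was 2. At 6 h 0 passed (edgeR, with 7 at an unadjusted p under 0.05 and 1 called by DESeq2). With the replicate block, 7 were higher at 3 h and 6 at 6 h, with 0 lower, and ABCG38 was not among them. The block called 634 of all 24814 tested genes higher and 143 lower at 3 h, and 380 and 129 at 6 h.

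**Figure D4:**
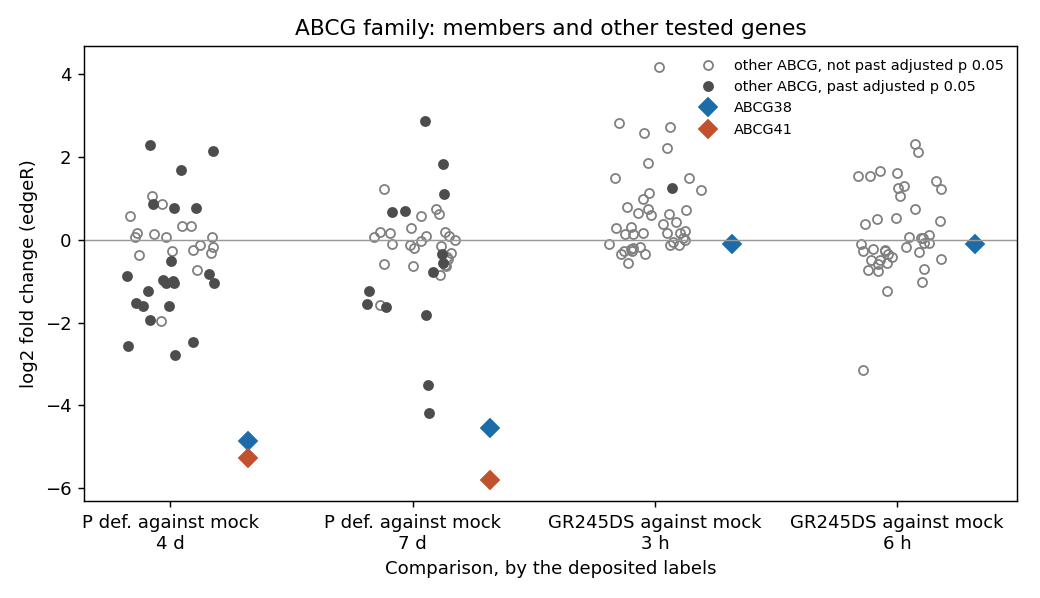
Log2 fold changes (edgeR) of ABCG38 (blue diamonds), ABCG41 (orange diamonds) and the other tested ABCG genes (circles, filled where adjusted p is under 0.05) in the comparisons of treatment with mock, by the deposited labels. The pair lies between -5.81 and -4.56 in the P table, the contrast that picked it, while ABCG38 lies at -0.10 and -0.09 with GR245DS and ABCG41 could not be tested there.

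The list of strigolactone synthesis genes holds D27, a carotene isomerase, and the carotenoid cleavage dioxygenases CCD7 and CCD8, which act in that order to make carlactone. The MAX1 enzymes, which oxidise carlactone, are not among the genes tested in the P table. Of 9 listed genes 6 were tested in the P table, and 3 were lower and 2 higher in phosphorus deficiency at each day (edgeR), where 18.4% of all tested genes were lower and 20.3% higher at day 4, and 18.2% and 17.4% at day 7. The median log2 fold change was -2.31 at day 4 and -2.50 at day 7. The CCD8 gene Sobic.003G293600 stood at 108 CPM in mock and 0.918 CPM in phosphorus deficiency at day 4, and at 175 and 1.25 CPM at day 7. The CCD7 gene Sobic.006G170300 stood at 6.94 and 0.366 CPM at day 4, and the D27 gene Sobic.005G168200 at 12.7 and 0.368 CPM. The 2 higher genes were a second CCD8 (Sobic.005G002500, 0.661 and 2.20 CPM at day 4) and a second D27 (Sobic.009G030800, 4.74 and 7.45 CPM). Leaving out 1 library took the higher count to 1 in 4 cases at day 4 (mock replicates 1 and 3, phosphorus deficiency replicates 1 and 2) and in 2 at day 7 (mock replicate 2, phosphorus deficiency replicate 3). With GR245DS 0 of 7 tested synthesis genes passed at either time (edgeR, with 0 at an unadjusted p under 0.05 and 0 called by DESeq2). The same held with the replicate block. Among all tested genes 1.01% passed at 3 h and 0.484% at 6 h without the block.

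In strigolactone perception D14 is the receptor, and D53 is a repressor that is degraded after the signal. The list also holds SMAX1-like genes. Of 12 tested, 2 were higher and 4 lower at day 4 and 1 higher and 5 lower at day 7 (edgeR), beside the same 20.3% and 18.4%, and 17.4% and 18.2%, of all tested genes. D14 (Sobic.001G465100) was among the higher, at 137 CPM in mock and 408 CPM in phosphorus deficiency at day 4. Without mock replicate 2 the lower count of day 4 was 2. At day 7 the lower count was 3 without phosphorus deficiency replicate 2 or 3, and the higher count 2 without mock replicate 1 or 2 or phosphorus deficiency replicate 3. With GR245DS, where ABCG38 did not pass, 3 of 11 were higher at 3 h and 2 at 6 h, with 0 lower. Among all tested genes 1.01% and 0.484% passed. Both D53 genes passed at both times. Sobic.005G002400 stood at 40.4 CPM in mock and 148 CPM with GR245DS at 3 h (log2 1.88; adjusted p = 0.0166, edgeR), and Sobic.008G002400 at 51.1 and 155 CPM (log2 1.60; adjusted p = 0.00952, edgeR). The SMAX1-like gene Sobic.007G090900 passed at 3 h, at 184 and 312 CPM. Without GR245DS replicate 1 the count at 3 h was 1. At 6 h it was 1 without mock replicate 1, mock replicate 3, GR245DS replicate 1 or GR245DS replicate 3, and 0 without mock replicate 2. With the replicate block 5 and 4 were higher, beside 634 and 380 of all 24814 tested genes.

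Markers of other cell types were counted in the P table, where 20.3% of all tested genes were higher and 18.4% lower at day 4, and 17.4% and 18.2% at day 7. All 6 xylem and secondary wall genes were lower in phosphorus deficiency at both days (edgeR), and their sum was 1370 to 1886 CPM in mock and 165 to 379 CPM in phosphorus deficiency. Of 12 tested root hair and sorgoleone genes, 5 were lower at day 4 and 6 at day 7, with sums of 798 to 1166 CPM against 465 to 541 CPM. Without phosphorus deficiency replicate 3 the count of day 4 was 8. The gene of that list with the highest mean level, ROOT HAIR DEFECTIVE 3 (Sobic.003G195500), was taken in by its name. The sums are therefore not read for root hair cells alone. Of 17 tested green tissue genes, 6 were higher at day 4 and 7 at day 7, at sums of only 9.75 to 21.5 CPM in mock and 32.2 to 40.3 CPM in phosphorus deficiency. Of 4 endodermis genes 3 were lower at day 4 and 0 at day 7 (edgeR, with 1 at an unadjusted p under 0.05 and 1 called by DESeq2), with sums of 72.0 to 155 CPM against 54.4 to 95.2 CPM. Without mock replicate 1 of day 7 the latter count was 2. Of 5 phloem genes 1 and 2 were lower. Of 53 tested genes of the root cap or meristem list, 9 were higher and 12 lower at day 4. At day 7, 7 were higher and 9 lower. These shares lay near those of all genes. The higher count of day 4 was 3 without mock replicate 2 or 3 or phosphorus deficiency replicate 1 or 2. The word SCARECROW in that list also took in Scarecrow-like genes, the 2 with the highest level among them. Its counts are therefore not read for root cap or meristem cells. In bulk roots, fewer cells of a type and less RNA per cell cannot be told apart, and the part of these shifts in the levels of ABCG38 and ABCG41 was not tested. The endodermis, root hair and xylem lists each had listed genes above 0 counts in every group. In the root hair list 2 to 8 of 21 genes had 0 counts in a group.

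In the GR table the xylem sum ran from 97.4 to 1262 CPM and the green tissue sum from 315 to 1253 CPM, and 0 of 6 and 0 of 23 tested genes passed with GR245DS at either time (edgeR). At an unadjusted p under 0.05 there were 0 xylem genes at either time, and 0 and 2 green tissue genes, of which DESeq2 called 0 and 1. With the replicate block 2 green tissue genes were lower at 6 h, beside 129 of all 24814 tested genes. Without the block, 1.01% of all tested genes passed at 3 h and 0.484% at 6 h. The endodermis sum there was 3.94 to 31.3 CPM. ABCG38 varied between 4.90 and 10.8 CPM over the same libraries.

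A second gene described as ABCG41 (Sobic.008G033700) sits directly beside the ABCG41 of the pair in the RefSeq gene order (Sorghum_bicolor_NCBIv3), as its preceding neighbour. It did not show the difference: it stood at 10.7 ± 2.80 CPM (SD, n = 3) in mock and 13.5 ± 1.13 CPM in phosphorus deficiency at day 4, and at 14.1 ± 2.63 and 15.0 ± 2.48 CPM at day 7. Its log2 fold changes of 0.34 and 0.10 did not pass (adjusted p = 0.209 and 0.745, edgeR). In the GR table it had 141 to 477 counts in libraries where its neighbour had at most 8. The sources used here do not say how reads shared by such copies were counted, so the split between the 2 genes is uncertain where both are present.

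The gene before ABCG38 is also an ABC transporter, of another subfamily, ABCB8 (Sobic.003G281400). It stood at 145 ± 29.8 CPM in mock and 53.9 ± 9.42 CPM in phosphorus deficiency at day 4, and at 106 ± 23.8 and 42.0 ± 3.24 CPM at day 7. The groups did not overlap, and its log2 fold changes were -1.43 and -1.34 (adjusted p = 8.2e-05 and 0.000139, edgeR). In the GR table its means were 55.1 to 67.8 CPM. Within 500 of the ID number of ABCG38, 8 genes were tested, of which 2 were higher and 3 lower at day 4 and 2 and 2 at day 7. Around ABCG41, 9 were tested, with 2 higher and 2 lower at each day. The background was 20.3% higher and 18.4% lower at day 4, and 17.4% and 18.2% at day 7.

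**Figure D5:**
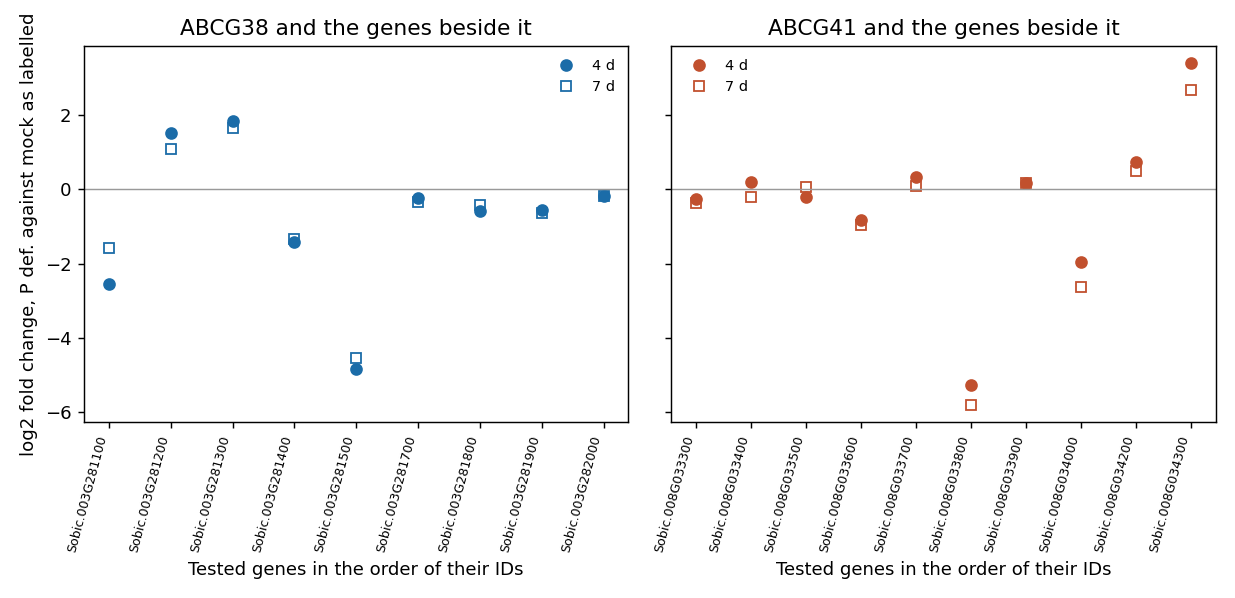
Log2 fold changes (edgeR) of phosphorus deficiency against mock, by labels, at day 4 (filled circles) and day 7 (open squares) for ABCG38, ABCG41 and the tested genes with neighbouring IDs, in ID order. Each of the pair is the lowest point of its panel; the second ABCG41 gene, Sobic.008G033700, lies at 0.34 and 0.10.

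Over the 12 libraries of the P table the log2(CPM + 1) values of ABCG38 and ABCG41 had a Pearson r of 0.99, a description that mostly restates the contrast used to pick them. Of 20891 genes compared, 113 had an r over 0.99 with ABCG38 and 24 with ABCG41. Ranked in the P table only, a choice made after seeing the data, the genes most like ABCG38 with a functional description began with the phosphate transporter PHT1-3 (Sobic.001G234900, r = 0.998), ABCB14 (Sobic.007G042600, r = 0.998) and purple acid phosphatase 2 (Sobic.008G113000, r = 0.998). For ABCG41 they began with SRG1 (Sobic.005G213500, r = 0.995) and included the same D27 gene as above (Sobic.005G168200, r = 0.994). Cytosolic sulfotransferase 5 (Sobic.005G213600) was among the first 10 of both, with r = 0.997 and 0.994.

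Ranked by the smaller r of the 2 tables, the genes most like ABCG38 were EMF2B (Sobic.006G015500), a Polycomb protein, with r = 0.95 and 0.86 (P table first, then GR table, 12 libraries each), a pentatricopeptide repeat protein (Sobic.003G301300, 0.86 and 0.88), phytoene desaturase (Sobic.006G232600, 0.98 and 0.84), the oxidase GLO5 (Sobic.002G036000, 0.93 and 0.82) and Sobic.010G033700 (0.87 and 0.81). Phytoene desaturase is a carotenoid pathway enzyme and stood at 159 CPM in mock and 51.1 CPM in phosphorus deficiency at day 4. For ABCG41 this ranking rests on the 3 GR libraries with 4 to 8 counts, and its genes are not listed.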

How the data were processed

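The members and all lists were chosen with earlier results of these data known. Per the file headers, the authors deposited a raw count per gene and library, their FPKM, and a false discovery rate and log2 fold change per comparison from DESeq2, with other text such as "--" where no value is given. The submitters' processing notes name DESeq2 1.22.1, featureCounts, HISAT2 and fastp without saying what each did. Per the labels' protocols, 1 µg RNA entered each library; the sources used here do not state strandedness, aligner settings or genome build.

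Each table's 12 libraries entered 1 fit with a mean per group in edgeR 4.0.16 (R 4.3.3; TMM, filterByExpr, robust quasi-likelihood test). The p-values were adjusted after Benjamini and Hochberg over every gene tested, with a threshold of 0.05. CPM use TMM-scaled totals. The fit was tested on simulated data. Alternatives were RLE factors, total counts, DESeq2 1.42.0, other filters, only the groups compared, a replicate block, and leaving out libraries. Same-numbered libraries of the GR table deviated together (r of 0.136 to 0.838, 12 of 12 libraries closest to their own number), so its numbers were taken to pair them; in the P table r ran from -0.503 to 0.644 and they were not.

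Lists were made by words in the gene descriptions: other ABCG genes, strigolactone synthesis and signalling, SPX and PHT1 genes, other ABC subfamilies, and markers of endodermis, root hair and sorgoleone, xylem, phloem, root cap or meristem, and green tissue. The word MAX1 was kept from matching SMAX1. The plan allowed naming the 2 genes with the highest mean level of each list and all tested synthesis genes. It also allowed the first 5 of the likeness ranking (log2(CPM + 1), mean of at least 1 CPM in each table). Not all of these are named. Other names were chosen after their values were seen. RefSeq symbols (25656 of 25827 found) served for gene order. No sequences are printed, and own counts per kilobase were not computed because gene lengths were not used here.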

Additional observations from a re-analysis of the deposited data

How the results depend on the processing

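No alternative moved ABCG38 or ABCG41 across the threshold in the contrasts tested. The log2 fold changes of ABCG38 near 0 changed sign in places: -0.0044 between the days of phosphorus deficiency with total counts only, 0.023 with GR245DS at 6 h without the third GR replicates, and, for the response at 6 h against 3 h, -0.0067 with RLE factors, -0.0057 with DESeq2, -0.0017 with no filter and -0.00040 with at least 30 reads in 3 libraries. Leaving out 1 library gave ABCG38 -0.25 to 0.075 with GR245DS at 3 h, -0.31 to 0.25 at 6 h, -0.48 to 0.023 between the mock times and -0.22 to 0.34 for the difference of the responses. Total counts alone shifted the median of all genes by -0.15 and -0.11 with GR245DS.

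Counts of called genes moved more. With DESeq2 they were 862 for mock day 7 against day 4 (338 with edgeR), 1826 between the phosphorus deficiency days (1103), 587 and 329 with GR245DS at 3 h and 6 h (250 and 120), and 5 between the mock times (0). Fitting only the groups compared gave 176 for the mock days and 100 for GR245DS at 3 h. The replicate block took same-numbered GR libraries as pairs. It gave 777 (634 higher, 143 lower) and 509 (380 and 129) with GR245DS, where edgeR without it gave 247 and 3, and 119 and 1. Leaving out 1 library gave 66 to 743 for the mock days, 596 to 975 for the phosphorus deficiency days, and 122 to 304 and 52 to 90 with GR245DS. The cause was not tested. In the P table the numbers were not taken to pair libraries, and the block changed no call of the 2 genes.

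ABCG41 did not pass the filter on low counts in the GR table, where it had 0 to 8 counts per library. With no filter its log2 fold change at 6 h was 0.40 ± 1.90 (adjusted p = 1, edgeR), and DESeq2 gave 0.41 with no adjusted p.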

Other observations

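The ABC transporters of subfamilies other than ABCG, 70 listed genes, were also read out. Among them 61 were tested in the P table, of which 14 were higher and 12 lower at day 4 and 15 and 13 at day 7 (edgeR, by the deposited labels), with median log2 fold changes of -0.06 and 0.02. Of all tested genes 20.3% were higher and 18.4% lower at day 4, and 17.4% and 18.2% at day 7. Leaving out mock replicate 3 or phosphorus deficiency replicate 1 took the higher genes of day 4 to 9. With GR245DS 3 of 60 were higher at 3 h and 2 at 6 h, with 0 lower. Among all tested genes 1.01% passed at 3 h and 0.484% at 6 h. ABCC2 (Sobic.006G219300), of a subfamily that moves glutathione and glucoside conjugates into the vacuole, stood at 552 CPM in mock and 2028 CPM with GR245DS at 3 h, and at 631 and 1716 CPM at 6 h (log2 1.88 and 1.44; adjusted p = 0.00374 and 0.0249, edgeR). Leaving out any library of the 6 h comparison took its count of 2 to 1. With the replicate block, 5 were higher and 1 lower at 3 h, and 3 higher and 1 lower at 6 h. The block called 634 of all 24814 tested genes higher and 143 lower at 3 h, and 380 and 129 at 6 h.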
